A study of Mus musculus with 6 samples.

Results

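The genes described here are 50 genes of the G2 and M phases of the cell cycle, chosen by symbol from a list of names: the kinesin motors that move along spindle microtubules, the centromere and kinetochore proteins that attach chromosomes to them, the kinases and checkpoint proteins that time chromosome separation, and the condensin subunits that compact chromosomes. All 50 were found among the 23420 genes listed. Messenger RNA was measured in germinal centre B cells, which divide and mutate their antibody genes in lymphoid follicles after meeting antigen. The cells are given as those of day 10, from spleens of mice that had received NP-KLH, a hapten on a carrier protein, into the peritoneum, and B cells were enriched on beads before germinal centre B cells were sorted. Mice of the KO group were BASP1 fl/fl hCD20TamCre+/- and those of the WT group BASP1 +/+ hCD20TamCre+/-, so all animals carried a Cre recombinase driven in B cells and switched on by tamoxifen, of which all received 1 mg on day 5, day 7 and day 9. The strain, sex and age of the mice are not given in the sources used here, and neither is the part of Basp1 that was floxed. Libraries 1 to 3 made up each group. Whether each came from its own mouse is not stated, and p-values here measure only the spread between libraries, which may be technical.

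In a dividing cell, the transcription factors B-MYB (Mybl2) and FOXM1 act with the MuvB complex to switch on the genes of mitosis late in the cycle, and the same complex keeps them silent in resting cells. Kinetochores then capture microtubules, Aurora B and the passenger complex correct wrong attachments, and the checkpoint holds back the anaphase-promoting complex until every chromosome is attached. Germinal centre B cells are among the fastest dividing cells of the mouse, and division is concentrated in the dark zone of the germinal centre. In sorted cells measured in bulk, fewer dividing cells and less mitotic RNA per cell cannot be told apart.

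Levels are log2 CPM, where CPM is the reads of a gene scaled to a fixed library total, and a difference is KO minus WT on that scale. In the deposited values the WT and KO levels of 1 replicate number added up to the same sum for numbers 1, 2 and 3 in each gene, to within 0.001. A gene therefore has 3 paired differences around 1 mean, and these are given with their SD (n = 3 pairs). For the same reason, all KO libraries of a gene lie below all WT libraries exactly when its 3 paired differences are negative. They lie above when all 3 are positive. Groups of a gene that do not overlap thus add nothing to the signs of its pairs. Read depth per library is unknown, since the values are scaled (a library's sum lay from 997617 to 1000513 CPM). Basp1, the targeted gene, was at 5.49, 5.90 and 5.53 log2 CPM in WT 1 to 3 and at 3.27, 2.86 and 3.23 in KO 1 to 3 (means of 49.7 and 8.70 CPM), and all KO libraries lay below all WT libraries. Of 12 germinal centre B cell markers all 12 were tested, with summed levels of 12246 to 12500 CPM in WT and 11717 to 11947 in KO, so the groups did not overlap. Taken singly, the groups overlapped in 7 of the 12. A negative difference was found in 10 (48.6% of all tested genes), with a median of -0.07 and pair medians of -0.12, -0.08 and -0.064. In limma 4 were lower and 0 higher at an unadjusted p under 0.05, where 4.66% and 4.16% of tested genes were. Cd3e, a defining T cell marker, and Hba-a1, an erythroid one, lay at the lowest listed value in all 6 libraries. Of the T cell markers only Lck reached a mean of 1 CPM, so the T cell sum given next rests almost wholly on that gene. Lck had paired differences of 0.32, 0.13 and 0.24. The 7 T cell markers listed summed to 189 to 202 CPM in WT and 221 to 236 in KO, the 6 plasma cell markers to 2104 to 2315 and 1973 to 2159, the 7 naive and follicular B cell markers to 486 to 547 and 520 to 584, the 7 myeloid markers to 3.36 to 5.22 and 2.18 to 3.35, and the 7 erythroid and platelet markers to 1.2 to 2.27 and 2.02 to 3.53. Against the plasma cell sum, 3 of the 4 tested plasma cell markers had a positive difference, with a median of 0.30. At an unadjusted p under 0.05 in limma, 2 were higher and 1 lower, where 4.16% of tested genes were higher and 4.66% lower. Prdm1 and Irf4, regulators of plasma cell fate, differed by 0.93 ± 0.56 and 0.54 ± 0.26 (limma adjusted p = 0.256 and 0.0636), and Igj, the joining chain of secreted antibodies, by -0.16 ± 0.20.

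Genes of the light zone, where cells are selected, and of the dark zone were also listed. Of 10 light zone genes tested 9 had a positive difference and 1 a negative one, where 48.6% of all tested genes were negative. Their median was 0.083, with pair medians of 0.071, 0.21 and -0.036. Lower in KO were 3 of the 10 in pair 1, 2 in pair 2 and 6 in pair 3. The groups overlapped in 7 of the 10 taken singly. Egr2, a transcription factor of activated cells, rose by 0.68 ± 0.14 (limma adjusted p = 0.00366). The summed level of the light zone list was 1427 to 1627 CPM in WT and 1550 to 1768 in KO. Of 6 dark zone genes tested 5 had a negative difference (48.6% of all tested genes), with a median of -0.035. At an unadjusted p under 0.05 in limma there were 2, both lower, where 4.66% of tested genes were lower. Their summed level was 2548 to 2586 CPM in WT and 2391 to 2432 in KO, without overlap, though the groups overlapped in 5 of the 6 genes taken singly. The part of any of these lists in the results below was not tested.

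Promoters of mitotic genes are known for the cell cycle homology region (CHR), which the MuvB complex binds, and for CCAAT boxes, which NF-Y binds. RefSeq promoter windows (GRCm38.p6, 250 bases before to 50 after the start) were at hand for 42 of the 50 genes, in 44 windows. Aurkb, Cdc25c, Foxm1, Incenp, Kif20a, Smc4, Spc24 and Tpx2 had none. The letters TTTGAA, the usual CHR, were found on either strand in 33 of the 44 windows (75.0%) and in 17.9% of all 32851 windows. CCAAT was found in 31 (70.5%, against 37.4%), and 18 windows held 2 or more CCAAT (40.9%, against 11.7%). The variants TTTAAA and TTCGAA were found in 11 and 4 of the 44, and in 13.2% and 1.56% of all windows. A match is a description of letters, not a bound site.

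The 150 bases before the start are shown for 5 genes, the marker Mki67 with the lowest difference and 1 gene each of the motors, kinases, anaphase-promoting complex and condensin, with the CHR letters, their variant and CCAAT boxes in capitals (on the opposite strand in Kif11).
Mki67, chr7:135716380-135716529, minus strand: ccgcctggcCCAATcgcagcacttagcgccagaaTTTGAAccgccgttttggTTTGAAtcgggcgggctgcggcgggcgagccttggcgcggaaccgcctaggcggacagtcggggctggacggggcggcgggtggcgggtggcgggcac
Kif11, chr19:37376232-37376381, plus strand: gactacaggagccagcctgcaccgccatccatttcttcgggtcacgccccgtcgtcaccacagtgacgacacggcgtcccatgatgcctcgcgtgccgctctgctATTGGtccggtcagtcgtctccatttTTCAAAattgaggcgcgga
Plk1, chr7:122159285-122159434, plus strand: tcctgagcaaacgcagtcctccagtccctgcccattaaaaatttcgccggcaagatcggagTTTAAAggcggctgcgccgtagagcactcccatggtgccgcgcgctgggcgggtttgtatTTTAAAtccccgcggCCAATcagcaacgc
Cdc20, chr4:118437344-118437493, minus strand: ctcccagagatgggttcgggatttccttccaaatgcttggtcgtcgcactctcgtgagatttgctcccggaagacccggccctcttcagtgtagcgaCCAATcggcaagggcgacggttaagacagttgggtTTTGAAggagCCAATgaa
Ncapg, chr5:45669775-45669924, plus strand: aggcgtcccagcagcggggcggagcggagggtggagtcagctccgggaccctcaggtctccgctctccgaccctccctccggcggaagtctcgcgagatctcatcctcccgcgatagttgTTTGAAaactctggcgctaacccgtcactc
In Cdc20, Kif11 and Ncapg the CHR letters begin 18, 19 and 30 bases before the start, and in Cdc20 and Kif11 a CCAAT box begins 53 and 45 bases before it. Mki67 holds the CHR letters at 116 and 98 bases before the start. No printed matches share bases.

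None of the 50 mitotic genes passed an adjusted p of 0.05 in limma over the 10133 genes tested, where 0.266% did. All 50 were above the level needed for testing, a mean of 1 CPM, and 42 of them had a mean of at least 64 CPM. Of the 50 genes, 36 had a negative difference, and over all tested genes the share was 48.6%. The median difference of the 50 was -0.06, against 0.0037 over all tested genes. At an unadjusted p under 0.05 there were 7 members, all lower in KO, where 4.66% of tested genes were lower at that threshold, 4.16% were higher and 8.82% differed in either direction. They were Smc4, Casc5, Smc2, Kif4, Cenpf, Kif20b and Hmmr. In 13 members all KO libraries lay below all WT libraries (12.5% of tested genes) and in 3 above (15.2%). By the equal sums, these are the members whose 3 paired differences had the same sign. Most differences were small: 30 of the 50 were under 0.1 in size, and 9 were below -0.2. The summed level of the 50 genes was 9626 to 10159 CPM in WT and 9178 to 9627 in KO.

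The pairs were not alike. Pairs 1, 2 and 3 had medians over the 50 genes of -0.078, -0.10 and 0.006, and 36, 37 and 23 of the 50 were lower in KO. Over all tested genes the 3 medians were 0.003, 0.011 and 0.004. With pair 2 left out, 28 members had a negative difference (50.3% of all tested genes), 2 had an unadjusted p under 0.05 and were lower (1.89%), and none passed by adjusted p. With pair 3 left out, 38 were negative, 14 had an unadjusted p under 0.05, all lower (6.70%), and 6 passed an adjusted p of 0.05, where 0.977% of tested genes did: Cenpf, Kif20b, Casc5, Smc4, Cenpe and Kif4. Without pair 2 those 6 genes had differences of -0.20, -0.07, -0.23, -0.18, -0.18 and -0.13, each with an adjusted p of 1. Pair 3 was not free of lower values: 8 of 9 centromere and kinetochore genes were lower in it, and Nuf2, Birc5 and Mad2l1 had their lowest difference there, at -0.22, -0.15 and -0.17. Among the other alternatives, 1 member passed without pair 1 (Cenpe; 1.34% of tested genes), 3 with no filter on low values (Cenpf, Smc4 and Cenpe; 0.637%) and 1 with non-robust moderation (Mki67; 0.118%). No member passed without pair 2 (0.109%), without the replicate block (1.40%), with a mean of at least 4 CPM (0.283%), on log2(CPM + 1) (0.266%), without the variance trend (0.00%), with pair medians centred (0.247%) or with a trend over length and GC content removed (0.0397%).

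**Figure D1:**
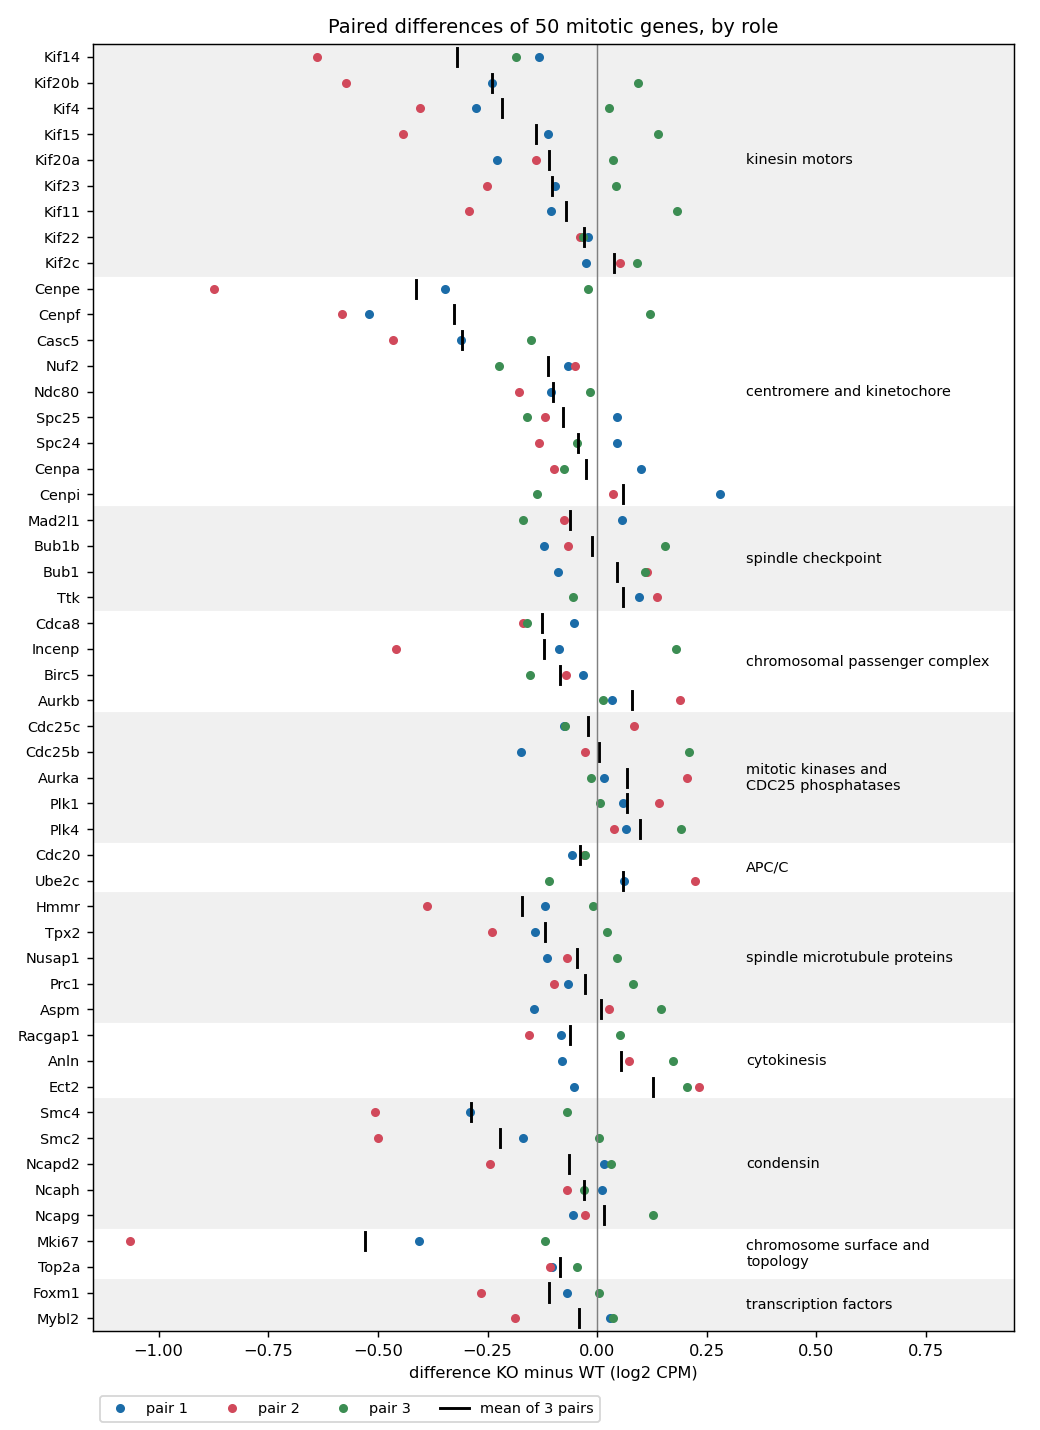
Paired differences of the 50 mitotic genes, KO minus WT in log2 CPM on the horizontal axis, 1 row per gene, grouped by role. Points are the 3 pairs and bars their mean; the points of pair 2 reach farthest to the left, to -1.065 for Mki67, while the means of the kinase and phosphatase genes lie between -0.022 and 0.098.

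Kinesins are motors that walk along or take apart microtubules. Of the 9 kinesin genes 8 had a negative mean difference, with a median of -0.11. All 9 were lower in KO in pair 1, 8 in pair 2 and 2 in pair 3, with pair medians of -0.11, -0.29 and 0.04. The median over the kinesins was -0.03 without replicate 2 and -0.20 without replicate 3. Kif4, a motor that rides on chromosome arms and on the central spindle (chromosome X, 100625737 to 100727214, GRCm38, the build called mm10), was at 6.83, 6.89 and 6.68 log2 CPM in WT 1 to 3 and at 6.55, 6.49 and 6.70 in KO 1 to 3. KO 3 was above WT 3, so the groups overlapped. The mean difference of Kif4 was -0.22 ± 0.22 (SD, n = 3 pairs; limma adjusted p = 0.335).

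Kif20b, a motor of cytokinesis, was at 5.98, 6.15 and 5.81 in WT and at 5.74, 5.57 and 5.91 in KO, again with KO 3 above WT 3. Its difference was -0.24 ± 0.33 (adjusted p = 0.401). Kif14, also of cytokinesis, was the lowest of the motors by difference, at -0.32 ± 0.28 (adjusted p = 0.663), and the members' lowest by level, at 7.25 CPM in WT. Its KO libraries all lay below its WT libraries, at 2.63, 2.38 and 2.61 log2 CPM against 2.77, 3.02 and 2.79.

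Kif11, the motor that pushes spindle poles apart, differed by -0.07 ± 0.24, with paired differences of -0.11, -0.29 and 0.18. Kif15, which can share that task, had -0.11, -0.44 and 0.14. These genes had the same order of pairs, with pair 2 lowest and pair 3 above 0. Kif20a and Kif23, which bring the passenger complex and centralspindlin to the midzone, differed by -0.11 ± 0.13 and -0.10 ± 0.15. Kif22, a chromosome-arm motor, differed by -0.03 ± 0.01, and Kif2c, which takes microtubules apart at centromeres, by 0.04 ± 0.06.

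At the centromere and kinetochore 8 of 9 genes had a negative difference, with a median of -0.10 and pair medians of -0.066, -0.13 and -0.076. Here 5 genes were lower in pair 1, 8 in pair 2 and 8 in pair 3. The median was -0.061 without replicate 2 and -0.058 without replicate 3. The largest differences belonged to 3 very large proteins. Casc5, now named Knl1, is the scaffold on which the checkpoint kinase BUB1 docks (chromosome 2, 119047119 to 119105501). It was at 6.66, 6.74 and 6.58 log2 CPM in WT and at 6.35, 6.27 and 6.43 in KO. All KO libraries were lower than all WT libraries, and the difference was -0.31 ± 0.16, with a 95% interval of -0.476 to -0.142 in limma (adjusted p = 0.0814).

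Cenpe, a kinetochore kinesin that carries chromosomes to the spindle equator, was at 7.14, 7.40 and 6.98 in WT and at 6.79, 6.53 and 6.96 in KO. The groups did not overlap, but KO 3 and WT 3 were only 0.021 apart. Its difference was -0.41 ± 0.43 (adjusted p = 0.665). Cenpf, an outer kinetochore protein, was at 6.35, 6.38 and 6.03 in WT and at 5.83, 5.80 and 6.15 in KO. KO 3 lay above WT 3, and the difference was -0.33 ± 0.39 (adjusted p = 0.380).

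The Ndc80 complex, the microtubule grip of the kinetochore, differed little. Its subunits Ndc80, Nuf2, Spc24 and Spc25 differed by -0.10 ± 0.08, -0.11 ± 0.10, -0.04 ± 0.09 and -0.08 ± 0.11, all negative and all with an adjusted p above 0.75. KO libraries were below WT libraries without overlap for Ndc80 and Nuf2. Cenpa, the histone H3 variant that marks centromeres, differed by -0.03 ± 0.11, and Cenpi, of the inner kinetochore, by 0.06 ± 0.21.

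Among the 4 checkpoint genes 2 were negative and 2 positive, with a median of 0.02 (0.042 without replicate 1 and 0.0015 without replicate 3). Ttk, the kinase MPS1 that starts checkpoint signalling, differed by 0.06 ± 0.10, Bub1 by 0.04 ± 0.12, Bub1b, the inhibitor BUBR1, by -0.01 ± 0.15, and Mad2l1, which binds CDC20, by -0.06 ± 0.11. In all 4 the groups overlapped. In the chromosomal passenger complex, which corrects attachments, 3 of 4 were negative, with a median of -0.10, or -0.035 without replicate 2. Cdca8 (borealin) and Birc5 (survivin) lay below WT in all 3 pairs, by -0.13 ± 0.06 (adjusted p = 0.625) and -0.09 ± 0.06 (adjusted p = 0.806). Cdca8 was at 8.55, 8.61 and 8.61 log2 CPM in WT and at 8.50, 8.44 and 8.45 in KO. Incenp, the scaffold of the complex, had paired differences of -0.09, -0.46 and 0.18. Aurkb, its kinase, was the exception with 0.08 ± 0.10, higher in KO without overlap.

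Of the 5 genes for Aurora A, the Polo-like kinases and the CDC25 phosphatases, which activate CDK1, 4 had a positive difference, with a median of 0.07. Plk1, the central mitotic Polo-like kinase (chromosome 7, 122159439 to 122169873), was at 8.27, 8.23 and 8.30 in WT and at 8.33, 8.37 and 8.31 in KO. The groups did not overlap, by a margin of 0.007 in pair 3, and the difference was 0.07 ± 0.07 (adjusted p = 0.856; 95% interval -0.070 to 0.208). Plk4, the kinase of centriole duplication, differed by 0.10 ± 0.08 (adjusted p = 0.815) and Aurka by 0.07 ± 0.12. Cdc25b and Cdc25c differed by 0.003 ± 0.193 and -0.02 ± 0.09. In pairs 1 and 3, 2 of these 5 genes were lower in KO, and in pair 2 it was 1, with pair medians of 0.015, 0.084 and 0.007. The median of these 5 genes was 0.018 without replicate 2, and their difference from the motors was not tested.

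The anaphase-promoting complex was represented by its activator Cdc20 and its ubiquitin-conjugating enzyme Ube2c. Cdc20 was at 9.10, 9.09 and 9.08 log2 CPM in WT and at 9.04, 9.06 and 9.06 in KO, a difference of -0.04 ± 0.02 (adjusted p = 0.932; 95% interval -0.168 to 0.091). Ube2c differed by 0.06 ± 0.17. Among 5 proteins of spindle microtubules 4 were negative, with a median of -0.046 (-0.012 without replicate 1 and -0.092 without replicate 3). Hmmr, which links the spindle to its poles, differed by -0.17 ± 0.19 (adjusted p = 0.513), with all KO libraries below all WT libraries, and Tpx2, the activator of Aurora A, by -0.12 ± 0.13. Nusap1 and Prc1, which bundle microtubules, differed by -0.05 ± 0.08 and -0.03 ± 0.10, and Aspm, of the spindle poles, by 0.01 ± 0.15. In cytokinesis Ect2, the exchange factor that activates RhoA at the equator, had the highest difference of all members, 0.13 ± 0.16 (adjusted p = 0.721), beside Anln, a scaffold of the contractile ring, at 0.06 ± 0.13 and Racgap1, a subunit of centralspindlin, at -0.06 ± 0.11. The median of the cytokinesis genes was 0.055, and -0.0035 without replicate 3. They were lower in KO in pair 1 in 3 of 3 cases and in pair 3 in 0 of 3.

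Condensin I compacts chromosomes with the ATPases SMC2 and SMC4 and 3 further subunits. Smc4 had the smallest p of the 50 genes (chromosome 3, 69004738 to 69034623). It was at 8.57, 8.68 and 8.46 log2 CPM in WT and at 8.28, 8.17 and 8.39 in KO. All KO libraries lay below all WT libraries, and the difference was -0.29 ± 0.22 (adjusted p = 0.0581; 95% interval -0.433 to -0.144), from 379 to 310 CPM. Smc2 was at 7.57, 7.74 and 7.49 in WT and at 7.40, 7.24 and 7.49 in KO, a difference of -0.22 ± 0.26 (adjusted p = 0.317), with no difference in pair 3 (0.005). The median over condensin was -0.07, or -0.01 without replicate 2 and -0.11 without replicate 3. The non-SMC subunits were closer to 0: Ncapd2 differed by -0.07 ± 0.15, Ncaph by -0.03 ± 0.04 and Ncapg by 0.015 ± 0.099. The ATPases are shared with condensin II, the non-SMC subunits listed are not.

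Mki67 encodes Ki-67, which coats mitotic chromosomes and keeps them apart, and is the usual marker of dividing cells (chromosome 7, 135689784 to 135716361). It had the lowest difference of the 50 genes. It was at 8.09, 8.42 and 7.95 log2 CPM in WT and at 7.69, 7.36 and 7.83 in KO. All KO libraries lay below all WT libraries, most in pair 2 (-1.07) and least in pair 3 (-0.12). The mean was -0.53 ± 0.48 (adjusted p = 0.763; 95% interval -1.49 to 0.43). The SD of its pairs stood against a median of 0.112 over tested genes of at least 64 CPM. With non-robust moderation, which does not set genes of unusual spread apart, the adjusted p was 0.0427. Top2a, the topoisomerase that untangles sister chromatids, differed by -0.09 ± 0.03, from 617 to 581 CPM. The regulators Foxm1 and Mybl2 differed by -0.11 ± 0.14 (adjusted p = 0.806) and -0.04 ± 0.13 (adjusted p = 0.943).

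**Figure D2:**
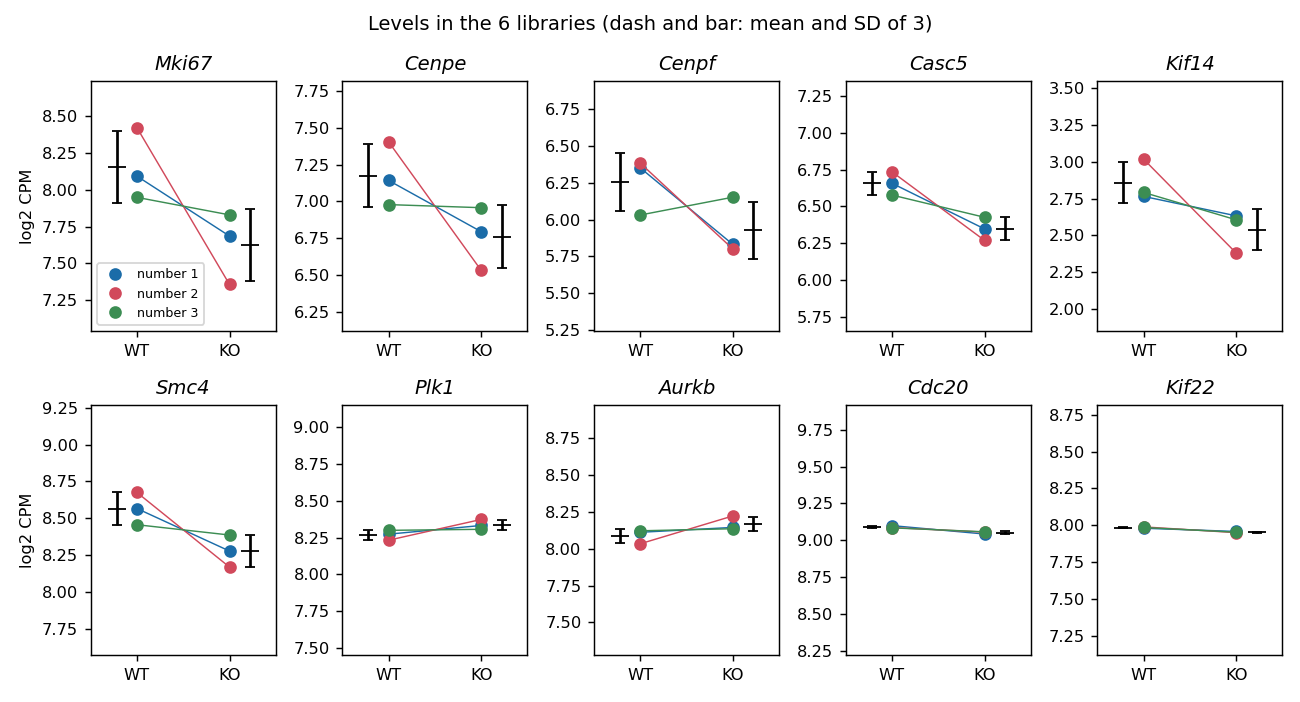
Levels of 10 mitotic genes in the 6 libraries, in log2 CPM, with each panel spanning the same range; lines join WT and KO libraries of one replicate number, and the dash and bar give the mean and SD of 3 libraries. Since WT and KO of a replicate number add up to the same sum in each gene, the groups mirror each other and their SDs are equal by construction. In Mki67 and Cenpe the library WT 2 is the highest, and KO 2 is therefore the lowest, while Cdc20 and Kif22 are nearly flat.

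The members with the largest negative differences had long transcripts. Over the 50 genes the difference was related to the log2 length of the main annotated transcript, with Pearson correlations of -0.618, -0.606 and 0.249 for the pairs in order (Spearman -0.649, -0.571 and 0.273). These are correlations across genes of the same libraries, which are not independent replicates. Over the 10074 tested genes with a length, the Pearson correlations were -0.208, -0.0749 and 0.17 (Spearman -0.273, -0.0801 and 0.265). All genes thus showed a relation of the same sign in each pair, weaker in pairs 1 and 2. In pair 3 it was of nearly the same size by Spearman and weaker by Pearson. Of the 10 members with a transcript over 5000 bp, a limit set after the values were seen, 9 had a negative difference, with a median of -0.27, and among all tested genes over that length 54.2% were negative, with a median of -0.02. In pair 2 the median of these 10 members was -0.54, where that of all 1757 long tested genes was -0.025. In pair 3 the medians were -0.034 and 0.057. Aspm, with a transcript of 9867 bp, differed by 0.01. With the trend over length and GC content removed within each pair, 37 of the 50 genes were negative (46.1% of all genes), their median was -0.06, and 7 had an unadjusted p under 0.05, all lower (3.96% of all genes). The differences of Mki67, Cenpe, Cenpf and Casc5 were then -0.49, -0.40, -0.29 and -0.32.

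**Figure D3:**
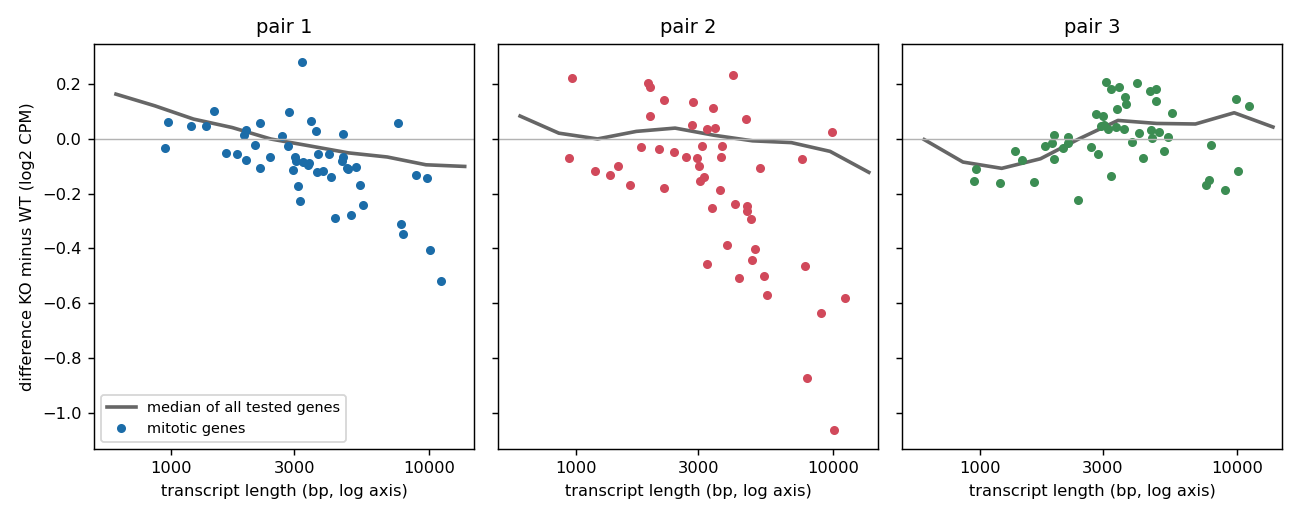
Paired difference, KO minus WT in log2 CPM, against transcript length in bp on a log axis, 1 panel per pair; points are the 50 mitotic genes and the line is the median of all tested genes in length classes of at least 20 genes. Most of the longest mitotic genes lie below the line in pairs 1 and 2, with Mad2l1 above it in pair 1 and Aspm in pair 2, and fall on both sides in pair 3.

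The median of a list of nuclear and other non-coding RNAs varied over the pairs in the same order as that of the mitotic genes. Of 9 nuclear or non-coding RNAs listed, the 6 tested had pair medians of -0.32, -0.71 and 0.32, and Malat1, a nuclear RNA, had paired differences of -0.38, -1.25 and 0.38. By mean difference 4 of the 6 were negative and 2 positive, from -0.64 for Neat1 to 1.08 for Rpph1, which had the smallest p of the 6. The 9 listed genes summed to 473 to 758 CPM in WT and 389 to 606 in KO, with Meg3 at the lowest listed value in all libraries. The naive and follicular B cell markers had pair medians of -0.14, 0.41 and -0.22. The part of either in the mitotic differences was not tested.

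Levels of different genes can be compared only per length. Per kb of the main transcript Birc5 was highest in WT, at 365 CPM per kb, followed by Cdc20 at 304, Ube2c at 248 and Cdca8 at 237. Kif14 was lowest at 0.811, below Cenpf at 6.86, Aspm at 6.39 and Anln at 8.24. The genes with the highest levels per kb were thus of the passenger complex and the anaphase-promoting complex. In KO the same 4 stood at 344, 296, 258 and 217. These values depend on which transcript is taken as the main one.

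The 31 genes with TTTGAA in a promoter window had a median difference of -0.07, with 22 negative, and the 11 without it -0.04, with 7 negative. Both sets were thus mostly lower in KO, and their difference was not tested.

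Other genes of mitosis, listed by role, gave the setting. None of 110 passed an adjusted p of 0.05, 2 had an unadjusted p under 0.05 and were higher (4.16% of tested genes), and 8 were lower (4.66%). Of these 110 genes 66 had a negative difference, with a median of -0.02 and pair medians of -0.0075, -0.037 and -0.0035. The mitotic cyclins and CDK1 were close to 0: Ccna2, Ccnb1, Ccnb2 and Cdk1 differed by 0.0043 ± 0.0608, 0.06 ± 0.15, -0.02 ± 0.04 and 0.003 ± 0.122. Ccnf, a cyclin F-box protein, had 0.16 ± 0.13 (adjusted p = 0.523). Of 31 further kinetochore and centromere genes 21 were negative, among them Hjurp, the chaperone that deposits CENP-A, at -0.31 ± 0.22 (adjusted p = 0.428), and Cenph and Cenpk at -0.23 ± 0.26 and -0.20 ± 0.15. Mis12, of the complex that anchors Ndc80, stood at 0.16 ± 0.11. Of 39 further spindle and cytokinesis genes 22 were negative, with Dlgap5, which stabilizes spindle fibres, at -0.23 ± 0.28, Cep55, of abscission, at -0.16 ± 0.07 and Depdc1b at 0.29 ± 0.15 (adjusted p = 0.317). DNA replication genes, active a phase earlier, were negative in 33 of 45 cases, with a median of -0.05. Their pair medians were 0.006, -0.15 and -0.046. Of these 45, 20 were lower in KO in pair 1, 39 in pair 2 and 23 in pair 3. Of the 50 mitotic genes 36, 37 and 23 were. In limma 5 of the 45 were lower and 0 higher at an unadjusted p under 0.05 (4.66% and 4.16% of tested genes).

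**Figure D4:**
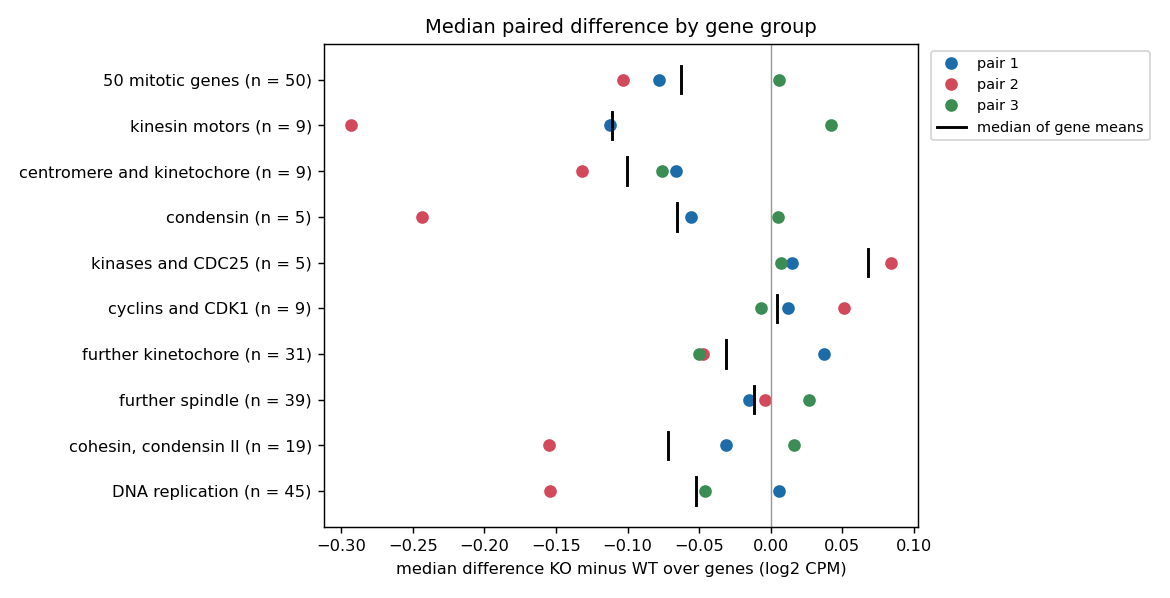
Median difference, KO minus WT in log2 CPM on the horizontal axis, of the 50 mitotic genes, of 4 roles among them and of 5 other gene lists; points are the 3 pairs and the bar is the median of the gene means. Kinesins and condensin lie farthest left in pair 2, at -0.293 and -0.244. The kinases and CDC25 phosphatases lie right of 0 in every pair, at 0.015, 0.084 and 0.007, where all tested genes had 0.003, 0.011 and 0.004.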

How the data were processed

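The submitters' processing notes name STAR 2.6.1a, Trim Galore 0.6.5, FastQC 0.11.7, Subread 2.0.1, featureCounts, limma and build mm10; their settings, strand use and order are not given in the sources used here. TruSeq mRNA was the library kit, per the labels. The deposited values are log2 CPM by their sums, 1 per gene and library, with the replicate effect removed. The libraries held 10160 to 10173 genes at 1 CPM or more. The planned fit keeps the replicate number as a block; since the sums are equal by construction, pairing by number cannot be read from the values, and the labels do not say what a number stands for. Genotypes were tested in limma 3.58.1 under R 4.3.3 (variance trend, robust moderation, two-sided, Benjamini-Hochberg over all tested genes, adjusted p under 0.05). The 10133 genes tested averaged 1 CPM or more and did not hold 1 value throughout; residual degrees of freedom were 2, prior ones 81.2 in the median. The fit was tested on simulated data. Transcript lengths and coordinates came from GENCODE M21 (GRCm38), with a length for 99.4% of tested genes: the coding transcript with the best APPRIS, CCDS and support marks, then the longest.

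The members and lists were chosen with earlier results of these data known. The text names every member past the threshold, the 12 with the smallest p, 22 set members and the extremes of each role. The other members are named to complete their roles, and other lists by their smallest p, with textbook genes added after values were seen. The alternatives were no replicate block, no filter, a mean of at least 4 CPM, log2(CPM + 1), leaving out each replicate number, no variance trend, non-robust moderation, centred pair medians, and removal of the length and GC trend.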

Additional observations from a re-analysis of the deposited data

How the results depend on the processing

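The count of mitotic genes past an adjusted p of 0.05 was 0 with the settings above and also without the replicate block, with a mean of at least 4 CPM, with log2(CPM + 1), without the variance trend, with centred pair medians and with the length and GC trend removed. It was 3 with no filter on low values (Cenpf, Smc4 and Cenpe), 1 with non-robust moderation (Mki67), and between 0 and 6 when a replicate number was left out: 1 (Cenpe) without number 1, 0 without number 2 and 6 without number 3. Over all genes the count of 27 became 142 without the replicate block (the pairing by number), 95 with no filter, 0 without the variance trend (640 genes with an unadjusted p under 0.05, 3 of them members), 12 with non-robust moderation, 4 with the length and GC trend removed, and 11 to 136 when a number was left out. The cause was not tested. The block changed no call among the members. A fit without the block counts too many degrees of freedom, since the replicate effect had already been removed from the values. Its count of 142 is therefore not on a par with the others. The median of the members kept its sign in all 11 alternatives, from -0.087 without number 3 to -0.026 without number 2. No replicate block, no filter, a mean of at least 4 CPM, no variance trend and non-robust moderation leave each difference unchanged by construction. No sign could move in these, so only the remaining alternatives bear on direction. Of the 50 members 33 kept their sign in all 11. Among the other members, leaving out a number gave -0.199 to 0.038 for Kif11, -0.0875 to 0.012 for Cenpa, -0.05 to 0.158 for Cenpi, -0.075 to 0.005 for Cdc25c, -0.0245 to 0.142 for Ube2c, -0.0595 to 0.0855 for Aspm, -0.0415 to 0.0505 for Ncapg and -0.0795 to 0.0325 for Mybl2, and Ncapg was -0.0074 with the length and GC trend removed. Signs also changed for Kif15 (-0.277 to 0.013), Incenp (-0.272 to 0.047), Bub1b (-0.094 to 0.044), Cdc25b (-0.1 to 0.091), Prc1 (-0.082 to 0.008), Anln (-0.0035 to 0.123) and Ncapd2 (-0.114 to 0.024). Spc24 ran from -0.089 to 0 and Aurka from 0 to 0.11. Read depth is unknown, so counting error could not be given.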

Other observations

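Cohesin, the ring that holds sister chromatids together until anaphase, and its partners were looked at beside condensin, since SMC1A and SMC3 are built like SMC2 and SMC4. Of 19 genes for cohesin, condensin II and chromatid separation 13 had a negative difference, with a median of -0.07 and pair medians of -0.031, -0.155 and 0.016, and none passed an adjusted p of 0.05. Smc1a and Smc3 had paired differences of -0.12, -0.60 and 0.02 and of -0.06, -0.50 and 0.02, and Smc2 had -0.17, -0.50 and 0.005. Wapal, now named Wapl, which releases cohesin, differed by -0.21 ± 0.24 (limma adjusted p = 0.355), and Pds5a, which regulates it, by -0.17 ± 0.14 (adjusted p = 0.672), lower in all 3 pairs. Pttg1, the inhibitor of separase, was the highest of the 19 at 0.07.

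Of 12 genes for the MuvB core, its pocket proteins and E2F partners, 7 were negative, with a median of -0.03 and none past an adjusted p of 0.05. The largest differences were -0.13 ± 0.19 for Mybl1 and 0.12 ± 0.36 for Tfdp2.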
